A study of Homo sapiens with 9 samples.

Results

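The insulin and IGF system was followed here through 10 of the 58929 genes in the count table. They are the IGF binding proteins IGFBP2, IGFBP3, IGFBP4, IGFBP6 and IGFBP7, the receptors IGF1R, IGF2R and INSR, and the receptor substrates IRS1 and IRS2. They were chosen by name, with earlier results of these data known, so that their counts beside those of all genes are descriptions. All 10 passed the filter on low counts, as did 16065 genes in all. The binding protein genes IGFBP1, IGFBP5 and IGFBPL1, which did not pass it, are given with the other lists. The data are RNA sequencing of FaDu cells, an established line from a squamous cell carcinoma of the hypopharynx, in 9 libraries of 3 groups with 3 cultures each. One group received YKL-5-124 at 250 nM, a covalent inhibitor of the kinase CDK7, another received samuraciclib at 250 nM, an ATP-competitive inhibitor of the same kinase, and the last received DMSO, the vehicle. The exposure is given as 48 h in the treatment protocol and as 72 h in the design of the series, and no other agent or genetic change is named for any group.

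CDK7 is a cyclin-dependent kinase that activates other cell cycle kinases and phosphorylates RNA polymerase II as part of TFIIH. Insulin-like growth factors signal through IGF1R, a receptor tyrosine kinase close to the insulin receptor, INSR. Activated receptors phosphorylate the docking proteins IRS1 and IRS2, which recruit PI3 kinase and so turn on AKT and mTOR. The secreted binding proteins hold IGFs in the extracellular fluid and set how much reaches the receptors, while IGF2R, which is also the cation-independent mannose 6-phosphate receptor, takes up IGF2 and carries enzymes to the lysosome. The comparisons ask what CDK7 inhibition did to the transcripts of this system.

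The promoters of 3 genes on which the results turn are shown as the 250 bases before the RefSeq start of the transcript, read 5′ to 3′ on the strand of the gene, on GRCh38.p14. They are given so that the genes can be seen with the sequence from which they are transcribed, and the letters in capitals mark the motif named for each. For IGFBP3 (chr7:45921273-45921522, minus strand) the capitals mark TATATA. The gene model in the count table began 602 bases further upstream, so that this window lay within the span of that model. For IRS2 (chr13:109786584-109786833, minus strand) the capitals mark GGGCGG on either strand, the core of a GC box, with overlapping copies run together. For IGF2R (chr6:159968832-159969081, plus strand) the capitals mark CACGTG, the E-box that MYC and USF proteins are known to bind.
IGFBP3: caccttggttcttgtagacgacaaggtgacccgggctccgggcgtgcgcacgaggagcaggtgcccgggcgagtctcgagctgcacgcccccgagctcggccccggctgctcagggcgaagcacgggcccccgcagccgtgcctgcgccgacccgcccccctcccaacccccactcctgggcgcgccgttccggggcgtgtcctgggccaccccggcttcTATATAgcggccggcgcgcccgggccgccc
IRS2: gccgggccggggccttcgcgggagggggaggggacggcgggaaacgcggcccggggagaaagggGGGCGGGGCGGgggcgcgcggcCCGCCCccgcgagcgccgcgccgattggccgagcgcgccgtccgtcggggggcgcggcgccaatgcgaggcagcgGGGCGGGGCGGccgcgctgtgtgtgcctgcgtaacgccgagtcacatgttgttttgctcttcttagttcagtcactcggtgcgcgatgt
IGF2R: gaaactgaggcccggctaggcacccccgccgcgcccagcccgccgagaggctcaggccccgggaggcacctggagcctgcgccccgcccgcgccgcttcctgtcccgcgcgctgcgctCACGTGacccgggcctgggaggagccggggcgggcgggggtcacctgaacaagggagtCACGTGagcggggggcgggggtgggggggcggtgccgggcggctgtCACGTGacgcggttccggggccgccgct

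IGFBP3 held 1 TATATA, which began 30 bases before the start and which 3.73% of the 35116 promoter windows of this length held. IRS2 held 5 copies of GGGCGG, against a share of 42.6% of windows with at least 1 and 13.9% with 3 or more. The motif was not particular to IRS2, since IGF2R held 6 copies (not capitalized in its window), IRS1 held 4 and INSR held 4. IGF2R held 3 copies of CACGTG, which began 132, 74 and 28 bases before the start. At least 1 copy was in 6.34% of windows, and 3 or more were in 28 windows, or 0.0797%. RefSeq windows were found for 9 of the 10 genes, IGFBP7 being the other one. Across these 9, TATAAA was in the window of IGFBP4 alone (10.7% of all windows), and GTAAACA, a forkhead motif, was in that of IGFBP6 alone (2.98% of all windows). TGACTCA, an AP-1 motif, was in none of them (4.20% of all windows). All motifs were searched on both strands, and a match is a description of the letters only.

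The libraries held 18096180 to 28018126 counts, with a biological coefficient of variation of 0.0631. The squamous epithelial type of the cells was checked with 8 markers, which cannot identify FaDu itself and which all passed the filter. They summed to 5657 to 6088 CPM with YKL-5-124, 6286 to 6592 CPM with samuraciclib and 5453 to 5776 CPM with DMSO. Most of each sum was KRT5 (1763 to 2694 CPM) and KRT17 (1744 to 2817 CPM), with KRT14 at 17.0 to 35.9 CPM and KRT6A at 2.55 to 12.2 CPM. The markers differed in direction, KRT5 being lower and KRT17 higher with both inhibitors than with DMSO. Of the markers of fibroblasts, cells in which IGFBP4, IGFBP6 and IGFBP7 are often abundant, 1 of 7 passed the filter, COL1A1, and they summed to 3.94 to 5.72 CPM with YKL-5-124, 4.77 to 6.12 CPM with samuraciclib and 3.80 to 5.33 CPM with DMSO, with LUM at 0. Endothelial markers had 2 of 5 above the filter, nearly all of it CDH5, and summed to 25.5 to 28.4 CPM with YKL-5-124, 20.0 to 23.8 CPM with samuraciclib and 30.0 to 32.1 CPM with DMSO, with KDR and TEK at 0. Leukocyte markers had 1 of 6 above the filter, CD14, and summed to 3.45 to 4.18 CPM with YKL-5-124, above the 2.57 to 2.99 CPM with samuraciclib and the 2.46 to 3.24 CPM with DMSO, with MS4A1 at 0. Their part in the results was not tested. One library of each group, YKL-5-124 replicate 2, samuraciclib replicate 2 and DMSO replicate 3, held little 7SL RNA (RN7SL2 at 24.9 to 59.3 CPM, against 696 to 981 CPM in the other 6). Samuraciclib replicate 2 was the lowest of its group for 8 of the 10 genes, YKL-5-124 replicate 2 for 6 and DMSO replicate 3 for 3. The matching shares over all genes are not given here, so these counts cannot be read as a trait of the 10 genes.

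Of the 10 genes, 4 rose with YKL-5-124 against DMSO and the same number rose with samuraciclib against DMSO, while none fell with edgeR or DESeq2, nor stood lower at an unadjusted p below 0.05. IGFBP3, IGFBP7, IRS2 and INSR were called in both comparisons. Of all genes tested, YKL-5-124 had 11.9% called higher and 9.93% called lower, and samuraciclib had 8.17% called higher and 9.55% called lower. Calls required an edgeR quasi-likelihood adjusted p (Benjamini-Hochberg, over all genes) below 0.05 and a log2 fold change beyond 0.5. IGF1R and IGF2R passed the adjusted p in both comparisons and stayed inside the fold threshold, so that 6 of the 10 genes passed it, beside 49.3% of all genes with YKL-5-124 and 44.1% with samuraciclib. The median log2 fold change of the 10 genes was 0.39 with YKL-5-124 and 0.42 with samuraciclib, beside 0.014 with YKL-5-124 and 0.0012 with samuraciclib for all genes tested. Both comparisons share the same DMSO libraries, so that an error in those libraries would move both. Without the 3 libraries low in 7SL RNA the calls of IGFBP3, IGFBP7 and IRS2 stood in both comparisons with DMSO and that of INSR stood with samuraciclib, while INSR with YKL-5-124 (log2 0.48) was no longer called. In bulk RNA a larger or smaller share of cells that express a gene cannot be told apart from more or less of its RNA per cell. Levels were scaled within each library and no spike-in is named, so that a rise or fall here is relative to the other genes.

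**Figure D1:**
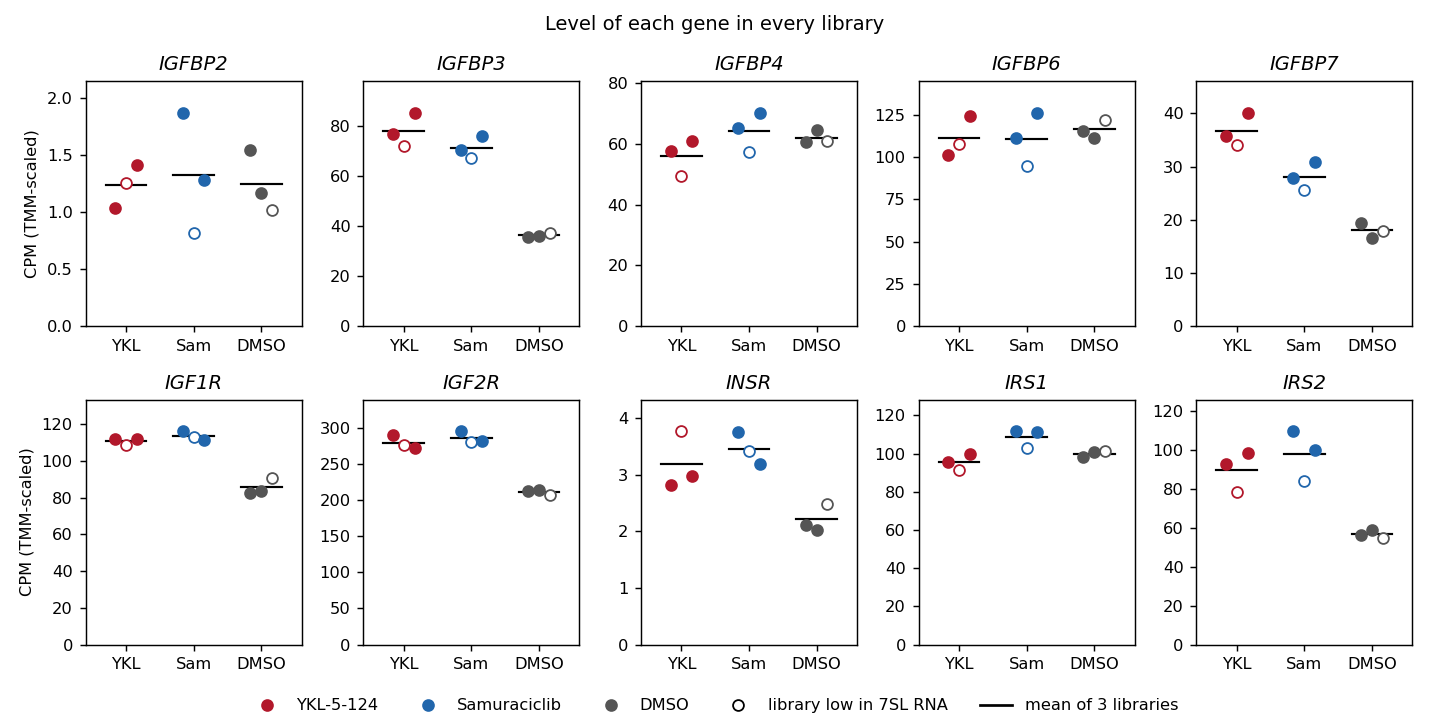
Level of each of the 10 genes in CPM, counts scaled to the size of each library (vertical axes from 0), in the 3 libraries of YKL-5-124 (YKL), samuraciclib (Sam) and DMSO. Points are libraries, lines are means, and open points are the 3 libraries low in 7SL RNA. IGFBP3, IGFBP7, IGF1R, IGF2R, INSR and IRS2 lay above DMSO in all 6 libraries with an inhibitor.

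IGFBP3 (ENSG00000146674, chr7:45912245-45921874) encodes the main carrier of IGFs in blood, which is also known as a target of p53 and TGF-beta. It had 76.96, 72.2 and 85.2 CPM with YKL-5-124, 70.6, 67.4 and 76.1 CPM with samuraciclib, and 35.7, 36.0 and 37.1 CPM with DMSO. Every library with an inhibitor lay well above every DMSO library, and the ranges of the 2 inhibitors overlapped. IGFBP3 rose with YKL-5-124 by a log2 fold change of 1.10 ± 0.07 (SE), which is 2.15-fold (edgeR adjusted p = 2.19e-10). With samuraciclib it rose by 0.97 ± 0.07, which is 1.96-fold (edgeR adjusted p = 2.32e-09). Among the 10 genes this was the largest rise in this fit, in both comparisons.

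IGFBP7 (ENSG00000163453, chr4:57030773-57110385) encodes a secreted protein that binds IGFs weakly and insulin, and that is known as a component of the senescence secretome. Its levels were 35.7, 34.1 and 40.1 CPM with YKL-5-124, 27.8, 25.6 and 30.8 CPM with samuraciclib, and 19.5, 16.5 and 17.97 CPM with DMSO. The 3 groups did not overlap, with YKL-5-124 highest and DMSO lowest. IGFBP7 rose 2.04-fold with YKL-5-124 (log2 1.03 ± 0.09, edgeR adjusted p = 2.54e-08) and 1.56-fold with samuraciclib (log2 0.64 ± 0.09, edgeR adjusted p = 1.25e-05). Of its exonic bases, 18.3% are shared with models on the opposite strand, 260 bases with POLR2B and 94 with IGFBP7-AS1, and whether the counting used strand is not given in the sources used here. POLR2B, a subunit of RNA polymerase II, had a log2 fold change of -0.15 with YKL-5-124 and of -0.05 with samuraciclib, neither of them called. IGFBP7-AS1 held at most 3 counts in a library.

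IGFBP6 (ENSG00000167779, chr12:53097436-53102345), which prefers IGF2 over IGF1, had 101.6, 107.7 and 124.3 CPM with YKL-5-124, 111.6, 95.1 and 126.2 CPM with samuraciclib, and 115.5, 111.6 and 122.3 CPM with DMSO. The ranges overlapped in every pair of groups. Its log2 fold change was -0.07 with both inhibitors, with 95% intervals of -0.24 to 0.11 for YKL-5-124 and -0.25 to 0.10 for samuraciclib. IGFBP4 (ENSG00000141753, chr17:40443461-40457731), a binding protein known to restrain IGF action until PAPP-A cleaves it, had 57.7, 49.4 and 60.8 CPM with YKL-5-124, 65.3, 57.4 and 70.2 CPM with samuraciclib, and 60.7, 64.6 and 60.8 CPM with DMSO. The ranges of IGFBP4 overlapped as well, for YKL-5-124 and DMSO by their outermost libraries only, and its log2 fold changes were -0.15 (interval -0.31 to 0.0097) with YKL-5-124 and 0.05 (-0.11 to 0.21) with samuraciclib. IGFBP2 (ENSG00000115457, chr2:216632828-216664436) was scarce, at 18 to 40 counts in a library, and encodes a binding protein known to be raised in many carcinomas. It had 1.04, 1.25 and 1.41 CPM with YKL-5-124, 1.87, 0.820 and 1.28 CPM with samuraciclib, and 1.55, 1.17 and 1.02 CPM with DMSO. The groups overlapped widely, and the 95% interval of the log2 fold change of IGFBP2 was -0.63 to 0.66 with YKL-5-124 and -0.54 to 0.76 with samuraciclib, so that changes of the size seen for INSR were not detectable at this depth.

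Levels of different genes were compared per kb of gene model, since counts grow with the length of a transcript. The 5 binding proteins together summed to 144 ± 13.2 CPM per kb with YKL-5-124, 142 ± 16.8 CPM per kb with samuraciclib and 132 ± 3.60 CPM per kb with DMSO (SD, n = 3 each). The sums overlapped between samuraciclib and DMSO, and those with YKL-5-124 began just above the highest DMSO library (136.2 against 136.1 CPM per kb). Without the division by length the sums were 265 to 312 CPM with YKL-5-124, 246 to 305 CPM with samuraciclib and 230 to 239 CPM with DMSO, and neither inhibitor overlapped DMSO. IGFBP6 led in every library, with 57.2% ± 1.96 of the sum with YKL-5-124, 57.9% ± 1.30 with samuraciclib and 65.4% ± 1.23 with DMSO. The share of IGFBP3 was 11.8% ± 0.366 with YKL-5-124, 11.03% ± 0.686 with samuraciclib and 6.00% ± 0.0938 with DMSO. That of IGFBP7 was 13.2% ± 0.290 with YKL-5-124, 10.3% ± 0.301 with samuraciclib and 7.04% ± 0.542 with DMSO. For IGFBP3, IGFBP6 and IGFBP7 the shares with either inhibitor did not overlap those with DMSO. The share of IGFBP4 was 17.6% ± 1.34 with YKL-5-124, 20.6% ± 0.424 with samuraciclib and 21.3% ± 1.28 with DMSO, and only YKL-5-124 was apart from DMSO. IGFBP2 made up at most 0.275% in any library.

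**Figure D2:**
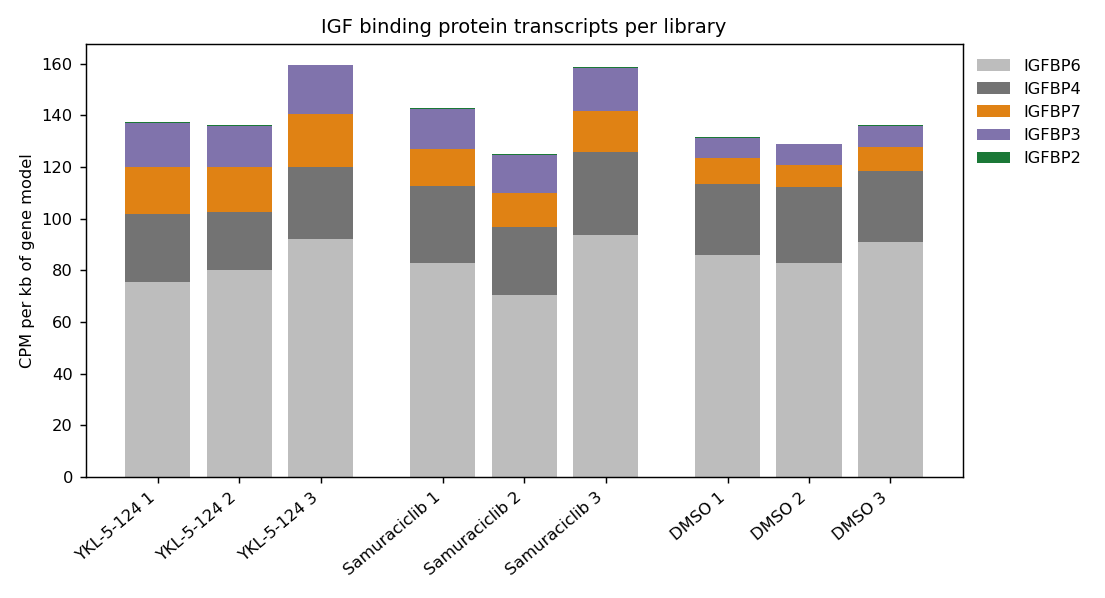
Levels of the 5 IGF binding proteins, stacked, in CPM per kb of gene model for each library (bars start at 0). IGFBP6 is the largest part of every bar, and the parts of IGFBP7 and IGFBP3 are larger in the 6 bars with an inhibitor than in the 3 bars with DMSO.

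IRS2 (ENSG00000185950, chr13:109752698-109786568), the docking protein whose promoter is printed here, had 92.7, 78.2 and 98.4 CPM with YKL-5-124, 109.5, 84.1 and 99.9 CPM with samuraciclib, and 56.1, 58.9 and 55.0 CPM with DMSO. All 6 libraries with an inhibitor were above the DMSO libraries, and they spread more widely than DMSO did. IRS2 rose 1.58-fold with YKL-5-124 (log2 0.66 ± 0.09, edgeR adjusted p = 5.07e-06) and 1.73-fold with samuraciclib (log2 0.79 ± 0.09, edgeR adjusted p = 7.80e-07). IRS1 (ENSG00000169047, chr2:226731317-226799759), its relative and the other main substrate of IGF1R, had 95.7, 91.5 and 99.7 CPM with YKL-5-124, 111.6, 103.0 and 111.3 CPM with samuraciclib, and 98.3, 100.6 and 101.3 CPM with DMSO. YKL-5-124 overlapped DMSO, whereas all 3 samuraciclib libraries lay above it. The log2 fold change of IRS1 was -0.07 (95% interval -0.17 to 0.04) with YKL-5-124 and 0.12 (0.01 to 0.22) with samuraciclib, where the edgeR adjusted p of 0.0640 missed the threshold. Per kb, the ratio of IRS2 to IRS1 was 1.146 ± 0.0876 with YKL-5-124, 1.10 ± 0.101 with samuraciclib and 0.693 ± 0.0261 with DMSO (SD, n = 3 each), and the ratios with either inhibitor did not overlap those with DMSO.

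IGF2R (ENSG00000197081, chr6:159969099-160113507) had the most counts of the 10 genes, 3720 to 7067 in a library. Its levels were 290.5, 276.8 and 271.8 CPM with YKL-5-124, 295.3, 280.8 and 282.2 CPM with samuraciclib, and 212.9, 214.0 and 207.9 CPM with DMSO. All libraries with an inhibitor lay above DMSO, by margins larger than the spread within any group. The log2 fold change of IGF2R was 0.40 ± 0.05 with YKL-5-124 (edgeR adjusted p = 8.29e-07) and 0.44 ± 0.05 with samuraciclib (edgeR adjusted p = 4.20e-07), both under the fold threshold. A pseudogene model within its span, AL353625.1, shares 2.53% of the exonic bases of IGF2R on the same strand. That model averaged 4.70 CPM with YKL-5-124, 5.18 CPM with samuraciclib and 0.800 CPM with DMSO, and its log2 fold changes of 2.55 and 2.69 were called. Its part in the values of IGF2R was not tested.

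IGF1R (ENSG00000140443, chr15:98648539-98964530), the receptor through which IGF1 and IGF2 signal, had 112.0, 108.5 and 112.1 CPM with YKL-5-124, 115.9, 112.7 and 111.5 CPM with samuraciclib, and 82.3, 83.7 and 90.7 CPM with DMSO. Here too the inhibitor libraries lay above the DMSO libraries without overlap. The log2 fold change was 0.37 ± 0.05 with YKL-5-124 (edgeR adjusted p = 5.37e-06) and 0.40 ± 0.05 with samuraciclib (edgeR adjusted p = 2.56e-06), again inside the fold threshold. With library size alone in place of TMM scaling, under which all genes together had a median of 0.14 for YKL-5-124, IGF1R stood at 0.50 and IGF2R at 0.53 with YKL-5-124 and both were called. INSR (ENSG00000171105, chr19:7112255-7294034), the insulin receptor, was scarce, at 37 to 96 counts. It had 2.81, 3.76 and 2.97 CPM with YKL-5-124, 3.74, 3.42 and 3.19 CPM with samuraciclib, and 2.12, 2.02 and 2.49 CPM with DMSO. Both inhibitors overlapped each other and lay above DMSO, and YKL-5-124 replicate 2, a library low in 7SL RNA, stood above the rest of its group. INSR rose 1.44-fold with YKL-5-124 (log2 0.52 ± 0.18, edgeR adjusted p = 0.0223) and 1.55-fold with samuraciclib (log2 0.63 ± 0.18, edgeR adjusted p = 0.00788). The call with YKL-5-124 was lost without YKL-5-124 replicate 2 (log2 0.37), without DMSO replicate 1 (0.49) or DMSO replicate 2 (0.46), with every gene with a count in the fit (log2 0.50, edgeR adjusted p = 0.0560), and with DESeq2 (log2 0.52, adjusted p = 0.0583).

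Per kb, the 3 receptors summed to 23.9 ± 0.566 CPM with YKL-5-124, 24.5 ± 0.629 CPM with samuraciclib and 18.2 ± 0.178 CPM with DMSO (SD, n = 3 each). Their proportions overlapped among the 3 groups: IGF2R made up 65.5% ± 0.781 with YKL-5-124, 65.5% ± 0.246 with samuraciclib and 65.1% ± 1.56 with DMSO. INSR made up 1.27% ± 0.222 with YKL-5-124, 1.35% ± 0.0782 with samuraciclib and 1.16% ± 0.119 with DMSO. The ratio of IGF2R to IGF1R was 1.97 ± 0.0683 with YKL-5-124, 1.97 ± 0.0223 with samuraciclib and 1.94 ± 0.126 with DMSO.

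In YKL-5-124 libraries the order of the 10 genes per kb was IGFBP6 (82.6 CPM per kb), IGFBP4 (25.4), IGFBP7 (19.0), IGFBP3 (17.1), IGF2R (15.7), IRS2 (11.03), IRS1 (9.61), IGF1R (7.95), INSR (0.304) and IGFBP2 (0.259). IGFBP7, IGFBP3 and IGF2R overlapped their neighbours in that order, as did IRS2 with IRS1 and INSR with IGFBP2. In samuraciclib libraries IGFBP6 (82.5) and IGFBP4 (29.2) led again. There the 5 genes from IGF2R (16.03) through IGFBP3 (15.6), IGFBP7 (14.6) and IRS2 (12.0) to IRS1 (10.9) each overlapped the next, followed by IGF1R (8.13), INSR (0.330) and IGFBP2 (0.278). In DMSO libraries the order was IGFBP6 (86.5), IGFBP4 (28.2), IGF2R (11.9), IRS1 (10.05), IGFBP7 (9.32), IGFBP3 (7.93), IRS2 (6.96), IGF1R (6.14), IGFBP2 (0.261) and INSR (0.211). IRS1 overlapped IGFBP7 there, and IGFBP2 overlapped INSR, while the other neighbours were apart. IGFBP3 stood above IRS1 with both inhibitors and below it with DMSO, without overlap in any of the 3 groups.

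**Figure D3:**
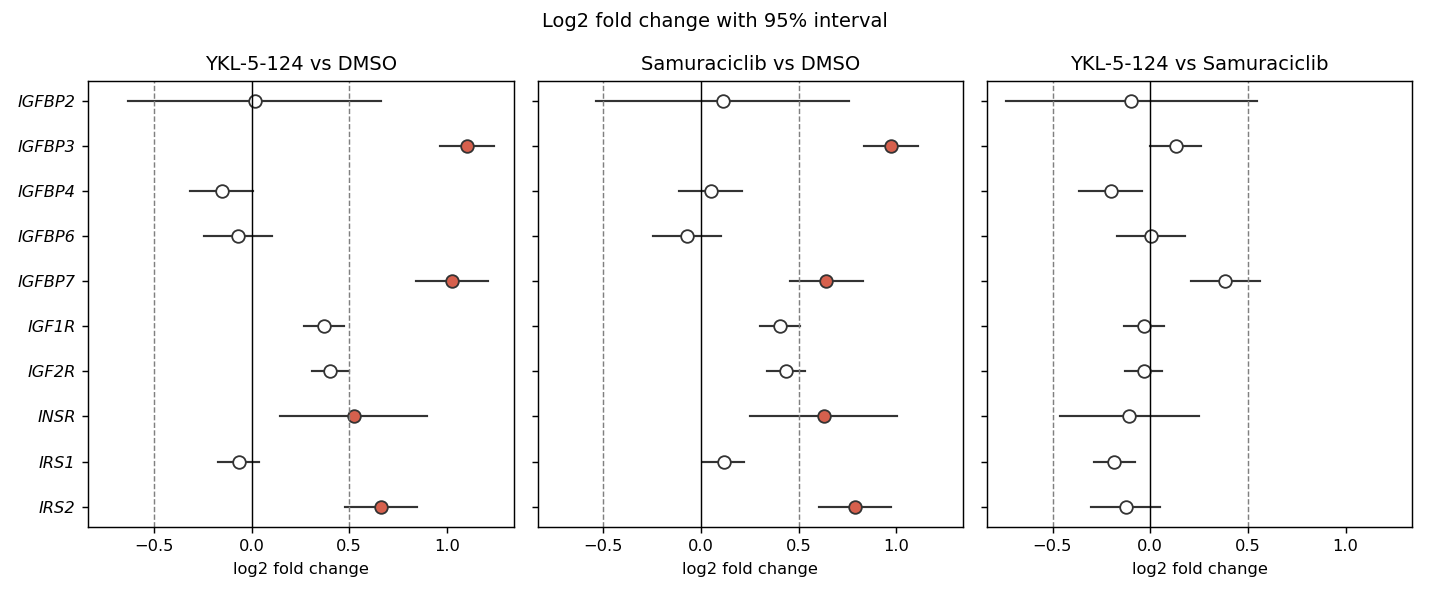
Log2 fold change of each gene (horizontal axis, points) with its 95% interval (lines) in the 3 comparisons, from edgeR's quasi-likelihood fit. Filled points were called higher and dashed lines mark the fold threshold of 0.5 in either direction. IGFBP3, IGFBP7, INSR and IRS2 are filled in both comparisons with DMSO, and no point is filled in the comparison of the inhibitors.

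The 2 inhibitors were compared at the same dose, as 1 pair. None of the 10 genes was called between YKL-5-124 and samuraciclib by edgeR, beside 4.46% of all genes called higher and 2.46% called lower. An unadjusted p below 0.05 was seen for 3 of them, 2 passed the adjusted p alone, beside 24.9% of all genes, and DESeq2 called none. IGFBP7 was 1.31-fold higher with YKL-5-124 than with samuraciclib (log2 0.38, 95% interval 0.21 to 0.56, edgeR adjusted p = 0.00286), and its groups did not overlap. IRS1 was lower with YKL-5-124, also without overlap (log2 -0.18, interval -0.29 to -0.08, edgeR adjusted p = 0.0119). Groups that did not overlap made up 19.5% of all genes on the higher side and 19.2% on the lower side, beside 1 and 1 of these 10. IGFBP4 passed the unadjusted p only, with a log2 difference of -0.20 (interval -0.36 to -0.04, edgeR adjusted p = 0.0616). For IGFBP3 the difference was 0.13 (interval -0.0013 to 0.26), for IRS2 it was -0.13 (-0.30 to 0.05), and for INSR it was -0.11 (-0.46 to 0.25). IGF1R and IGF2R differed by -0.03 each, with intervals of -0.13 to 0.07 and -0.13 to 0.06. IGFBP6 differed by 0.0038 (-0.17 to 0.18) and IGFBP2 by -0.10 (-0.74 to 0.54).

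Between each inhibitor and DMSO, 6 of the 10 genes had higher levels without overlap with YKL-5-124 and 7 with samuraciclib, and none had lower levels without overlap. Over all genes, such groups made up 28.4% higher and 28.4% lower with YKL-5-124, and 25.6% higher and 27.3% lower with samuraciclib. Over the 9 libraries, Pearson r of log2 CPM was 0.95 for IGFBP3 with IGFBP7, 0.96 with IGF1R, 0.96 with IGF2R and 0.93 with IRS2. For IGFBP4 with IRS1 it was 0.85, and for IGFBP3 with IGFBP6 it was -0.15. These are descriptions, since the libraries share their groups, and the difference between groups enters every one of them.

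The genes whose pattern was nearest to that of the 3 most variable of the 10 were sought by Pearson r of log2 CPM over the same 9 libraries, among 8916 protein-coding genes. For IGFBP3 they were EFNB2, BAG3 and WSB2 (r = 0.996 for each), an ephrin ligand, a chaperone partner of HSP70 and a SOCS box protein. For IGFBP7 they included PIAS4 and GSN (0.993 and 0.987), a SUMO ligase and the actin-severing protein gelsolin. For IRS2 they were AVEN, CREG1 and PRKCD (0.994, 0.991 and 0.987), a regulator of apoptosis, a lysosomal glycoprotein and a protein kinase C.

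The other parts of the pathway were taken from 5 lists of 90 genes, whose counts stand beside the shares of all genes called, 11.9% higher and 9.93% lower with YKL-5-124, and 8.17% higher and 9.55% lower with samuraciclib. The ligands IGF1, IGF2 and INS had no count in any library, and a count of 0 allows up to 3 counts, or 0.113 to 0.172 CPM, counting error only. IGFBP1 held at most 4 counts and IGFBPL1 none. IGFBP5, the neighbour of IGFBP2 on chromosome 2, held 10, 7 and 9 counts with YKL-5-124, 2, 4 and 11 counts with samuraciclib, and 0, 1 and 1 counts with DMSO. The DMSO libraries were below all the others. IGFBP5 did not reach the count filter. In the fit of every gene with a count its edgeR adjusted p was 0.000888 for YKL-5-124 and 0.0138 for samuraciclib, with fold changes that depend on the prior count. The p-values of that fit depend on the filter too. With YKL-5-124 it gave INSR an edgeR adjusted p of 0.0560, against 0.0223 in the main fit. It gave RPTOR one of 2.60e-17, against 8.98e-06 without YKL-5-124 replicate 1, a fit that differs in its libraries as well as its filter. The p-values of IGFBP5 are thus given as a description only. IGFALS, the acid-labile subunit of the circulating IGF complex, was the 1 tested gene among 9 in this list and was called higher with YKL-5-124 at 0.663 CPM, against 0.299 CPM with DMSO (edgeR adjusted p = 0.0461). That call was lost under 10 of 16 alternatives: without YKL-5-124 replicate 1, 2 or 3, samuraciclib replicate 1, or DMSO replicate 2 or 3, without the 3 libraries low in 7SL RNA (edgeR adjusted p = 0.244), with every gene with a count (0.0592), with the replicate block (0.0536) and with DESeq2 (adjusted p = 0.0890). With 1 library left out the log2 fold change of IGFALS was 0.76 to 2.05.

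The proteases that cleave binding proteins and the inhibitors of those proteases were 8 genes, of which 6 were tested. With YKL-5-124 2 fell and 4 were not called, 1 rose and 1 fell with samuraciclib, and the median log2 fold change was -0.26 with YKL-5-124 and -0.04 with samuraciclib. STC1, a secreted glycoprotein that inhibits PAPP-A, fell to 8.59 CPM with YKL-5-124 and 10.5 CPM with samuraciclib, against 26.2 CPM with DMSO (log2 -1.60 ± 0.11 and -1.31 ± 0.11). PAPPA itself held at most 1 count. ADAM12, a metalloprotease known to cleave IGFBP3 and IGFBP5, fell with YKL-5-124 (8.37 CPM against 14.2 CPM with DMSO, log2 -0.77 ± 0.11) and stood at 11.8 CPM with samuraciclib, which was not called. HTRA1, a serine protease known to cleave IGFBP5, rose with samuraciclib to 20.7 CPM, against 13.6 CPM with DMSO (log2 0.60 ± 0.11), and stood at 12.1 CPM with YKL-5-124. Between the inhibitors HTRA1 was the 1 called gene of this list, lower with YKL-5-124 (log2 -0.79 ± 0.11, edgeR adjusted p = 8.57e-05). ADAM12 lay just inside the threshold there (log2 -0.50) and was called lower with YKL-5-124 under 5 of 17 alternatives, among them DESeq2 (-0.50) and leaving out samuraciclib replicate 3 (-0.59).

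Among adaptors, PI3 kinase and AKT genes, 35 of 36 were tested. With YKL-5-124 4 rose (11.4%) and 2 fell (5.71%), with samuraciclib 5 rose (14.3%) and 1 fell (2.86%), where the share of rises with YKL-5-124 was near that of all genes, and the medians were -0.01 with YKL-5-124 and 0.09 with samuraciclib. PIK3R3, a regulatory subunit of PI3 kinase, rose to 48.8 CPM with YKL-5-124 and 39.0 CPM with samuraciclib, against 26.5 CPM with DMSO (log2 0.87 and 0.55). GAB2, a docking protein, rose by log2 0.95 with YKL-5-124 and 1.34 with samuraciclib, and CBLB, a ubiquitin ligase for activated receptors, by 0.95 and 0.55. SOCS3, a feedback inhibitor that also targets IRS proteins, fell to 33.2 CPM with YKL-5-124 and 44.02 CPM with samuraciclib, against 63.6 CPM with DMSO (log2 -0.94 and -0.53). With samuraciclib the calls of CBLB and SOCS3 were lost without DMSO replicate 3 (log2 0.47 and -0.49), that of CBLB also without samuraciclib replicate 3 (0.46) and that of SOCS3 without the 3 libraries low in 7SL RNA (-0.47). Between the inhibitors SOCS3 (log2 -0.41), PIK3R3 (0.33), GAB2 (-0.40) and CBLB (0.40) passed the edgeR adjusted p without reaching the fold threshold, which GAB2 passed without YKL-5-124 replicate 2 (-0.52) and without the 3 libraries low in 7SL RNA (-0.57).

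All 17 genes of the TSC and mTOR complexes were tested. With YKL-5-124 2 fell (11.8%) and 15 were not called, with samuraciclib 3 fell (17.6%) and 14 were not called, and the median was -0.06 in both. MLST8, a subunit of both mTOR complexes, fell to 77.7 CPM with YKL-5-124 and 70.0 CPM with samuraciclib, against 121 CPM with DMSO (log2 -0.63 ± 0.05 and -0.79 ± 0.05). MTOR, the kinase itself, fell with YKL-5-124 (log2 -0.56 ± 0.05) and had -0.41 with samuraciclib, inside the fold threshold. RPTOR, the scaffold of complex 1, fell with samuraciclib (log2 -0.53) and had -0.49 with YKL-5-124. Its samuraciclib call was lost without samuraciclib replicate 3 (-0.47), and RPTOR was called lower with YKL-5-124 too with every gene with a count (-0.51), without YKL-5-124 replicate 1 (-0.53), without DMSO replicate 3 (-0.53) and without the 3 libraries low in 7SL RNA (-0.51). DEPTOR, an inhibitor of mTOR, was called lower with samuraciclib at 1.63 CPM, against 3.13 CPM with DMSO (log2 -0.91 ± 0.24).

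FOXO factors are held out of the nucleus by AKT, and IRS2 and INSR are themselves known as FOXO targets in other tissues. Of 19 tested genes among FOXO factors and known targets, 6 rose (31.6%) and 13 were not called with YKL-5-124, while 4 rose (21.1%) and 3 fell (15.8%) with samuraciclib, with medians of 0.28 for YKL-5-124 and 0.26 for samuraciclib. SESN3, a stress-induced regulator of mTOR complex 1, rose to 15.0 CPM with YKL-5-124 and 13.0 CPM with samuraciclib, against 6.79 CPM with DMSO (log2 1.13 ± 0.11 and 0.92 ± 0.11). GABARAPL1, an autophagy protein, rose by log2 0.76 with YKL-5-124 and 0.52 with samuraciclib, and the samuraciclib call was lost without DMSO replicate 1 (0.47). CITED2, a transcriptional co-regulator, fell with samuraciclib (log2 -0.80) and was higher with YKL-5-124 than with samuraciclib (log2 0.52), a call lost without YKL-5-124 replicate 3 (0.46) or samuraciclib replicate 2 (0.47). TXNIP, a thioredoxin inhibitor, fell with samuraciclib (log2 -0.55) and had -0.40 with YKL-5-124. Under the filter of a mean of at least 50 counts, 3 of the 6 YKL-5-124 calls of this list, FOXO4, FOXO6 and KLF15, were no longer tested. FOXO4 and FOXO6 are factors rather than targets. The FOXO6 call was also lost without YKL-5-124 replicate 3, DMSO replicate 1 or DMSO replicate 2. That of FOXO4 was lost without the 3 libraries low in 7SL RNA. Over the alternatives, 3 to 9 genes of the list rose and 0 to 2 fell with YKL-5-124. With library size alone 9 genes of the list rose with YKL-5-124, and 7 rose and 1 fell with samuraciclib. Of all 16065 genes tested, that scaling called 2802 higher with YKL-5-124, against 1911 in the main fit. With samuraciclib it called 1622 higher, against 1312, and 1219 lower, against 1535. That scaling also ended the call of MTOR with YKL-5-124 (log2 -0.43) and those of SOCS3 (-0.47), RPTOR (-0.47) and TXNIP (-0.49) with samuraciclib.

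**Figure D4:**
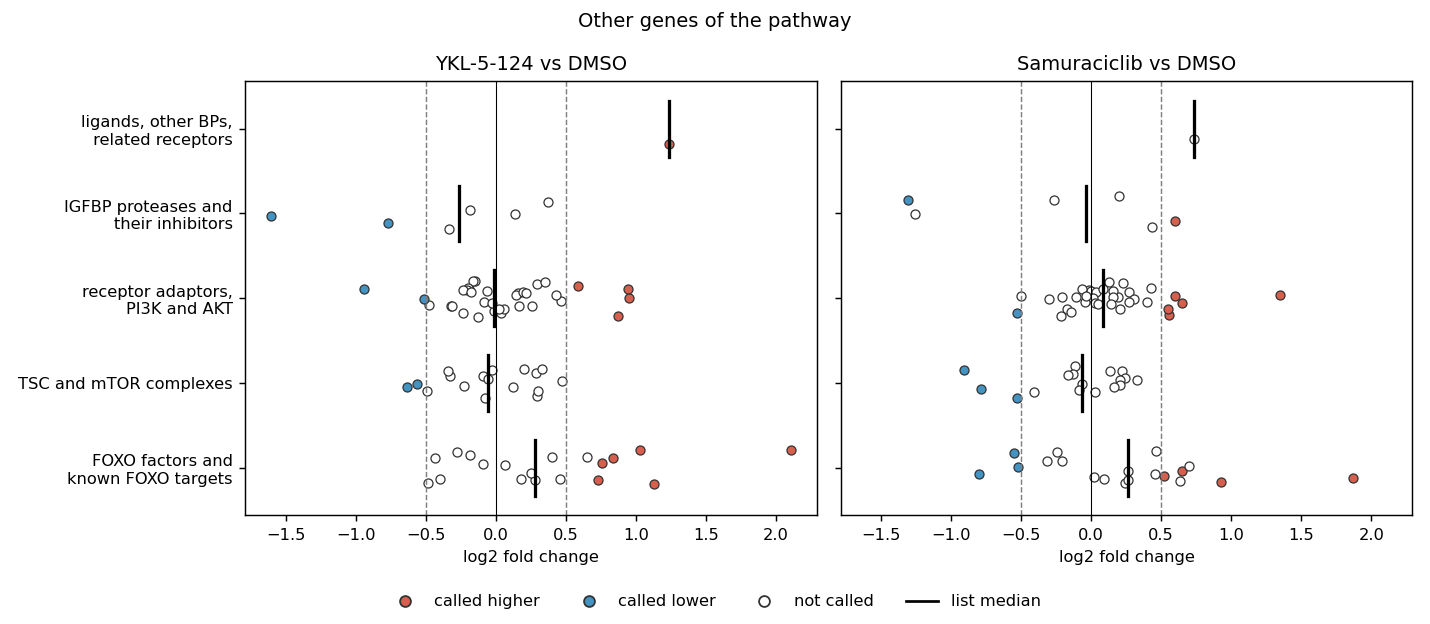
Log2 fold change (horizontal axis) of the tested genes in the 5 other lists of the pathway for YKL-5-124 against DMSO (left) and samuraciclib against DMSO (right). Filled points were called higher or lower, black bars are list medians and dashed lines mark the threshold of 0.5. The FOXO list has its median to the right of 0 in both panels, and STC1 is the lowest point of the protease list.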

How the data were processed

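Poly(A) RNA was read as pairs, placed on GRCh38 by HISAT2 and counted per gene by featureCounts 2.0.6, per the labels and the study's methods. The authors deposited raw counts, whole numbers without normalization or a filter, with gene positions, biotypes and gene model lengths. The annotation release and the strand setting are not given in the sources used here. All 9 libraries entered 1 fit in edgeR 4.0.16 (R 4.3.3) after filterByExpr and TMM scaling, without covariates, and were tested two-sided with glmQLFTest and Benjamini-Hochberg adjustment over 16065 genes. SEs were the log2 fold change divided by the square root of F, and CPM values use TMM-scaled library sizes. The fit was tested on simulated counts, and no result of that test is given here.

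The genes and lists were chosen with earlier results of these data known. All 10 genes were named, of each other list up to 4 called genes with the smallest adjusted p, with IGF1, IGF2, INS, IGFBP1 and IGFBP5 whatever their values, and for likeness the 3 protein-coding genes of highest r among those averaging 10 CPM or more. Any other gene, and the TATATA motif, was chosen after its values were seen. Promoters are from RefSeq on GRCh38.p14. The libraries are labelled as replicates, which the study's methods call biological. All are cultures of FaDu cells, and the p-values set differences between groups against the spread between replicates, estimated over all groups together. Alternatives covered scaling, filter, tool (DESeq2 1.42.0), libraries, block and thresholds. Figures used Python 3.11.15 with matplotlib 3.10.9. One of the genes nearest in pattern to IGFBP7 is not reported here.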

Additional observations from a re-analysis of the deposited data

How the results depend on the processing

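Under 507 alternative values for the 10 genes over the 3 comparisons, 499 kept their direction where called and their side of the threshold. Most of the 507 belong to genes and comparisons not called in the main fit, and some leave out a library of the group not compared. The changed fold thresholds given below are not among them. The 6 that lost a call were all INSR with YKL-5-124, at log2 0.37 to 0.52, and the 2 that gained one were IGF1R and IGF2R with YKL-5-124 under library size alone. That scaling also moved the share of rises among called genes to 72.7% with YKL-5-124 (54.5% with TMM), 57.1% with samuraciclib (46.1%) and 79.5% between the inhibitors (64.5%). With YKL-5-124, 4 of the 10 genes were called, 6 with no fold threshold and 2 with glmTreat against a log2 fold change of 0.5, among 3506, 7919 and 1458 of all genes. With samuraciclib these were 4, 6 and 2, among 2847, 7087 and 982. Between the inhibitors they were 0, 2 and 0, among 1112, 4003 and 71. The counts fall with glmTreat because it tests against the threshold itself.

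With the replicate number as a block, 4 of the 10 genes and 3494 of all genes were called with YKL-5-124, 4 and 2825 with samuraciclib, and 0 and 1101 between the inhibitors. Same-numbered libraries deviated together with r of -0.05 to 0.16, highest for YKL-5-124 replicate 2 with samuraciclib replicate 2. Differently numbered libraries of different groups had r of -0.11 to 0.14, highest for DMSO replicate 3 with each of those 2 libraries. The libraries of these highest pairs are the ones low in 7SL RNA, and they do not share a replicate number throughout. Whether the numbers pair the samples cannot be decided from these values, since the ranges overlap and noise in single genes lowers r. Depth limited IGFBP2 and INSR most, at 18 to 40 and 37 to 96 counts in a library. IGFBP2 could not be tested under a mean of at least 50 counts.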
